A study of Homo sapiens with 16 samples.

Results

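The immediate early genes described here were 10 genes, FOS, FOSB, JUN, JUNB, EGR1, IER2, ATF3, NR4A1, DUSP1 and BTG2, out of 26410 genes in the RNA-seq tables. They were chosen by name, with earlier results of these data known, and their Ensembl identifiers were found in both tables. The RNA came from SH-SY5Y, an established human neuroblastoma line, in 16 poly(A)-selected libraries from 4 single-cell clones. Clones KO11 and KO28 were labelled TRPM2 KO and had received Cas9, a guide against the ion channel gene TRPM2 and a donor with GFP and puromycin markers. Clones Scr13 and Scr16 (Scr) had received a scrambled guide and the same kind of donor, so all 4 clones had gone through transfection, selection and cloning. Each clone gave 2 untreated libraries and 2 libraries after doxorubicin, an anthracycline that poisons topoisomerase II, for 24 h, which made 4 libraries for each combination of genotype and treatment. The dose was 0.3 µM per the sample labels and the study's text on these samples, while the series design gives 3 µM. Library depth was between 10481177 and 25086085 reads assigned to genes (median 16037366.5), and the lowest depth was in Scr16 after doxorubicin, replicate 1. Each genotype was 2 clones, so a difference between genotypes and a difference between these clones cannot be told apart. The study's methods call the 2 libraries of a clone biological replicates, and p-values measure the spread between these libraries.

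Immediate early genes are transcribed within minutes of a stimulus from factors that are already in the cell, mainly serum response factor with its ternary complex partners, and CREB, which are reached through the ERK, p38 and calcium pathways. Many of their products are transcription factors. FOS and JUN family proteins pair as AP-1, and other members feed back on the signal, such as DUSP1, a phosphatase of MAP kinases. In neural cells they are known as markers of depolarization and calcium entry, and several of them, BTG2 and ATF3 among these, also respond to DNA damage. A library taken after 24 h holds a late level of such genes, not the first peak.

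TRPM2 was read first as a check of the labels. Values here are normalized CPM (nCPM, reads per gene scaled by library size), the deposited unit. Untreated and treated libraries are in separate tables, and whether these were normalized together is not given in the sources used here, so levels set side by side across treatments rest on the authors' scaling. TRPM2 stood at 1.93 and 2.23 nCPM in untreated KO11 and at 1.41 and 2.19 nCPM in untreated KO28, against 0.118 and 0.115 nCPM in Scr13 and 0 reads in both libraries of Scr16. After doxorubicin it stood at 1.22 and 1.83 nCPM in KO11, at 1.37 and 0.658 nCPM in KO28, at 0.0594 and 0.0631 nCPM in Scr13 and at 1.33 and 0.390 nCPM in Scr16. The libraries labelled TRPM2 KO thus held more TRPM2 reads than the untreated Scr libraries, which is not the order that a loss of the RNA would give. Per the study's methods, the edit removed the start of the coding sequence and put the rest out of frame, and the clones were checked by RT-PCR and Western blotting. Reads from the part that was not deleted can remain after such an edit, so the edit is not checked by reads summed over the gene. Reads from TRPM2 and its antisense partner TRPM2-AS could not be separated here, and where in the gene the reads lie was not analysed here. The genotype labels are therefore used as labels, and each direction below is that of libraries labelled TRPM2 KO (KO) over libraries labelled Scr.

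Of 11 neuroblast markers, 10 passed the filter on low values, and the summed level of the list lay between 6762 and 7903 nCPM in the 16 libraries. DBH, STMN2 and HAND2 were the most abundant of them, while TH, the enzyme that starts catecholamine synthesis, averaged under 1 nCPM in each group (0.287 ± 0.335 nCPM, SD, n = 4, in untreated Scr) and was at 0 reads in 6 libraries. Of the mesenchymal markers, 6 of 9 tested were higher in KO than in Scr without treatment and 6 of 8 after doxorubicin, and TWIST1 was lower in both, where 2.3% and 4.52% of all genes tested were higher and 2.54% and 4.17% lower. Their summed level was between 531 and 718 nCPM in untreated KO against 340 to 592 nCPM in untreated Scr, and between 557 and 810 nCPM against 346 to 493 nCPM after doxorubicin. TWIST1 was the most abundant of them in all 8 Scr libraries, and TWIST1, FN1 or COL3A1 in KO. COL1A1 averaged 16.9 ± 5.36 nCPM in untreated KO against 5.75 ± 3.40 nCPM in untreated Scr (SD, n = 4 each), WWTR1 was at 0 reads in 3 libraries and COL1A2 in 2. DCN reached at most 0.472 nCPM in untreated Scr and 0.760 nCPM in treated Scr, and LUM at most 0.631 nCPM in treated Scr. There they passed the filter of 1 nCPM through KO libraries alone and could hardly have been counted as lower in KO. The mesenchymal markers moved with the genotype labels in the same libraries as the early genes below, and their part in those differences was not tested. In bulk RNA, fewer cells that express a gene and less RNA per cell cannot be told apart.

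The start regions of 6 members are shown because the results turn on EGR1, BTG2, ATF3 and JUNB, while FOS and DUSP1 held the CRE core without a genotype difference that passed the test. Each is 300 bases around the RefSeq start (GRCh38.p14), written 5′ to 3′ on the gene's strand, with capitals for motif matches on either strand.
EGR1, chr5:138465229-138465528, plus strand: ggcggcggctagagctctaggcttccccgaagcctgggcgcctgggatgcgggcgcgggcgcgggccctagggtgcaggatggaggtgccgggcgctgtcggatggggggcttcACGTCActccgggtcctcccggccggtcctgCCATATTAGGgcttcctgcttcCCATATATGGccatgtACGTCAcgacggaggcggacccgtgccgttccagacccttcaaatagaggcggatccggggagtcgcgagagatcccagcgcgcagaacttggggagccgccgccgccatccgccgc
BTG2, chr1:203305269-203305568, plus strand: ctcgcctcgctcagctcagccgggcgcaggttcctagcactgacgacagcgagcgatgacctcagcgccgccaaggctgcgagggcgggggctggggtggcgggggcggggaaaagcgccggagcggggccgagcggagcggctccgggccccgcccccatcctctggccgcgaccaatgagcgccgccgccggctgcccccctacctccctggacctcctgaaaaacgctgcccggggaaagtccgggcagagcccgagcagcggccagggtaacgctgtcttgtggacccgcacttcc
ATF3, chr1:212565157-212565456, plus strand: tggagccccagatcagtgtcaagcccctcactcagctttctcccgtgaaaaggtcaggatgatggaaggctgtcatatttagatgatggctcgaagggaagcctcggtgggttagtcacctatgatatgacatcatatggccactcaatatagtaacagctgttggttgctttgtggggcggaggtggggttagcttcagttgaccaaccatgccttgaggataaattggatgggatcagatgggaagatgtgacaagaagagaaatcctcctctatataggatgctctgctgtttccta
JUNB, chr19:12791236-12791535, plus strand: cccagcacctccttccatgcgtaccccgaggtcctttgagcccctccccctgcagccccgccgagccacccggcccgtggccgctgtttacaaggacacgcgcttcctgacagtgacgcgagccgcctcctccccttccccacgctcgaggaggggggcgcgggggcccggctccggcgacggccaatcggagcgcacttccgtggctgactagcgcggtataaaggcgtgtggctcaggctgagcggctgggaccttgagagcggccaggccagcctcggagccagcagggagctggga
FOS, chr14:75278578-75278877, plus strand: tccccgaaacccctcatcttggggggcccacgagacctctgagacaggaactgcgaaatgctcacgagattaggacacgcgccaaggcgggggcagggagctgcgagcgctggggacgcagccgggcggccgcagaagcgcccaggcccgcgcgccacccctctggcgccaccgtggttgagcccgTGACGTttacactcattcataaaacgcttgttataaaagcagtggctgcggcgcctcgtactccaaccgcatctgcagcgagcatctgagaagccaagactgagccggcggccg
DUSP1, chr5:172771146-172771445, minus strand: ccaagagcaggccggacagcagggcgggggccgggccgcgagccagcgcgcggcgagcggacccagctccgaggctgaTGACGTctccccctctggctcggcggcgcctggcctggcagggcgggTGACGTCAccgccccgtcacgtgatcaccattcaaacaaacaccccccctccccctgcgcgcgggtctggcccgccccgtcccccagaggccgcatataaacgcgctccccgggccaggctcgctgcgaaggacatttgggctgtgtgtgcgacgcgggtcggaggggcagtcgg
The CRE core, TGACGT, is the main part of the site bound by CREB and ATF proteins and was in 7.98% of the 35116 start regions of this length. It was found once in FOS, once in FOSB, in 2 places in EGR1 and in 3 in DUSP1, where a pair overlaps because the longer palindrome reads the same on both strands. The CArG box, the site of serum response factor, was in 1.29% of start regions and in 2 places in EGR1, with no match in the other members. The AP-1 motif, TGANTCA (7.71% of start regions), and the p53 half-site (6.63%) had no match in any member's window. ATF3 and NR4A1 each had a second RefSeq start, and those windows held none of the 4 motifs either. A match is a description of letters, and a missing match says only that these letters are not in this window.

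**Figure D1:**
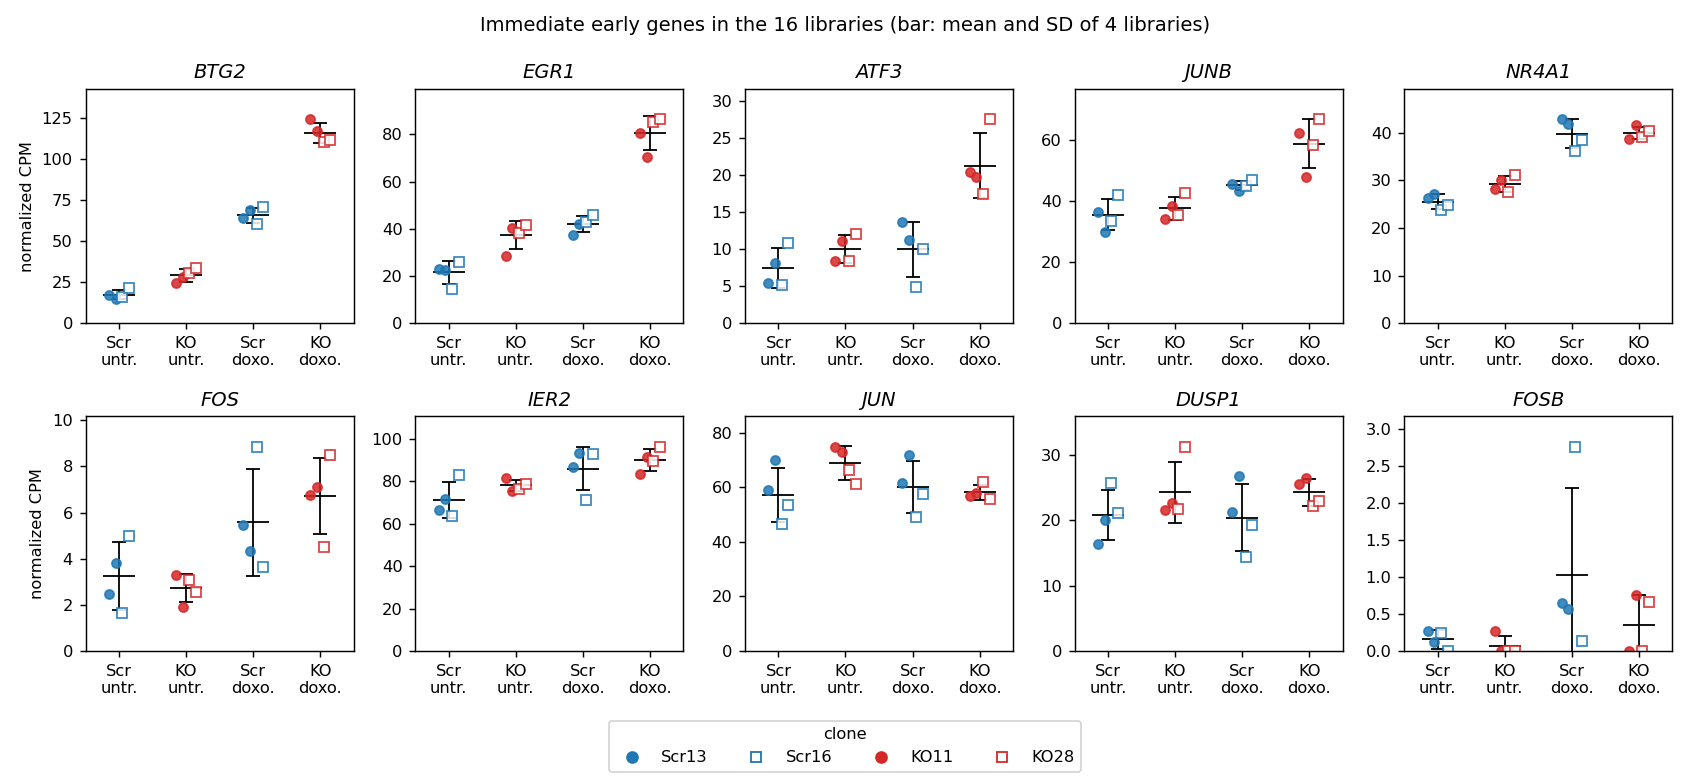
Normalized CPM (y axes, linear from 0) of the 10 immediate early genes in the 16 libraries, by group (x axes), with circles for clones Scr13 and KO11, squares for Scr16 and KO28, and the mean and SD of the 4 libraries as bars. BTG2 and EGR1 are above Scr in every KO library within each treatment, while NR4A1 after doxorubicin lies between 36.2 and 42.8 nCPM in all 8 libraries.

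Within untreated cells, EGR1 and BTG2 were the members that differed by genotype label, both higher in KO, by 1.71-fold and 1.64-fold. After doxorubicin, EGR1, BTG2, ATF3 and JUNB were higher in KO, by 1.89-fold, 1.75-fold, 2.11-fold and 1.29-fold. No member was lower in KO in either treatment at an unadjusted p under 0.05. Folds are on the log2(nCPM + 1) scale, which understates the change of low genes, and a call is an adjusted p under 0.05 in limma over all genes tested, by the method of Benjamini and Hochberg. Of the 10 members 9 passed the filter on low values (at least 1 nCPM in at least 4 libraries), and FOSB did not pass in any comparison. Thus 2 of 9 tested members were called higher without treatment, where 2.3% of 14364 genes were, and 4 of 9 after doxorubicin, where 4.52% of 14572 genes were. The 4 KO libraries lay above all 4 Scr libraries for 3 members without treatment (EGR1, BTG2 and NR4A1) and for 4 after doxorubicin, against 4.29% and 6.76% of genes. The median log2 difference of the 9 members was 0.21 and 0.27, beside -0.01 and 0.01 over all genes tested. The members and the gene lists of this report were chosen with earlier results of these data known. Shares set beside those of all genes are therefore a description and not a test of any set.

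**Figure D2:**
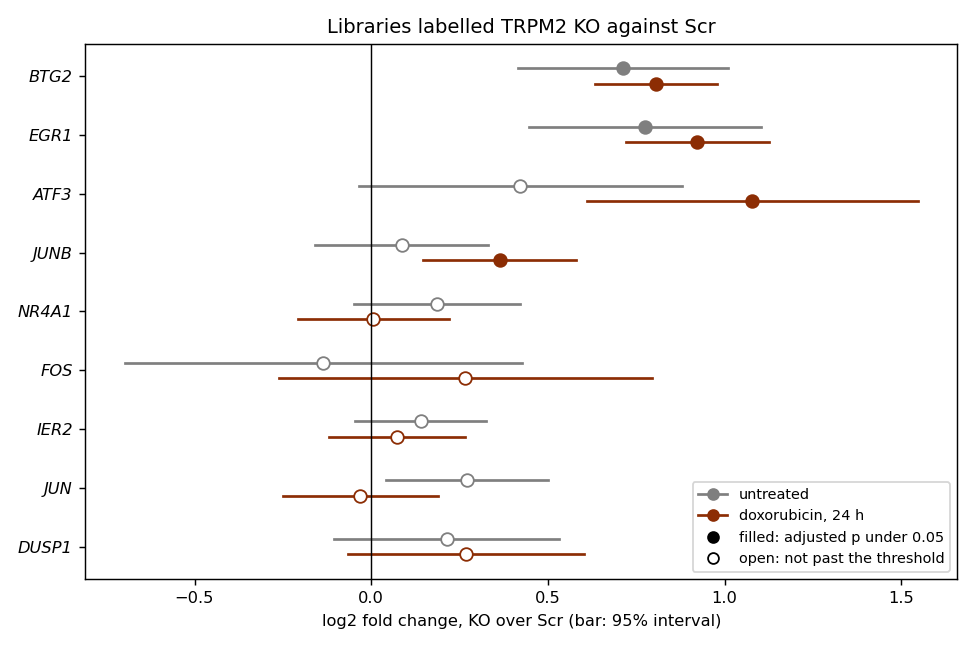
Log2 fold change of KO over Scr (x axis) with its 95% interval for the 9 members tested, in untreated cells (grey) and after doxorubicin (brown), with filled points for adjusted p under 0.05. Filled points are BTG2 and EGR1 in both treatments and ATF3 and JUNB after doxorubicin, and the intervals of the other members include 0 except that of JUN without treatment, which did not pass after adjustment.

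Of the FOS family subunits of AP-1, FOS (ENSG00000170345, chromosome 14, 75278774 to 75282230, plus strand, GRCh38) was low in all 16 libraries, with 27 to 142 reads. Untreated Scr13 stood at 2.48 and 3.80 nCPM, Scr16 at 1.66 and 4.998 nCPM, KO11 at 3.31 and 1.93 nCPM and KO28 at 3.08 and 2.55 nCPM. After doxorubicin Scr13 stood at 5.46 and 4.35 nCPM, Scr16 at 8.84 and 3.64 nCPM, KO11 at 6.78 and 7.12 nCPM and KO28 at 4.51 and 8.49 nCPM. All 4 KO libraries after doxorubicin were above the 4 untreated ones, while the Scr libraries overlapped between treatments and the genotypes overlapped in both. The log2 difference of KO over Scr was -0.14 ± 0.27 (SE) without treatment and 0.27 ± 0.25 after doxorubicin, with adjusted p = 0.890 and 0.628 (limma, Benjamini-Hochberg). Its 95% intervals were wide, -0.70 to 0.43 and -0.26 to 0.79.

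FOSB (ENSG00000125740, chromosome 19, 45467995 to 45475179, plus strand), a paralog of FOS that overlaps ERCC1 on the other strand, was close to absent from these libraries. It had 0 reads in 6 of the 16 libraries and at most 12 reads in all but 1 of the others. The exception was Scr16 after doxorubicin, replicate 1, with 29 reads and 2.76 nCPM, while replicate 2 of the same clone and treatment had 2 reads. No fold is given, and a count of 3 reads corresponds to 0.118 to 0.285 nCPM across the libraries.

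JUN (ENSG00000177606, chromosome 1, 58780788 to 58784327, minus strand), the founding partner in AP-1, was at a similar level throughout, between 46.5 and 74.8 nCPM. Untreated KO averaged 68.8 ± 6.275 nCPM and untreated Scr 57.3 ± 9.85 nCPM (SD, n = 4 each), with the groups overlapping. The log2 difference was 0.27 ± 0.11 (SE) without treatment (adjusted p = 0.227) and -0.03 ± 0.11 after doxorubicin (adjusted p = 0.916, both limma, Benjamini-Hochberg).

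JUNB (ENSG00000171223, chromosome 19, 12791496 to 12793315, plus strand), a JUN relative with weaker activity as a homodimer, overlaps HOOK2 on the other strand. Without treatment it stood at 36.5 and 29.9 nCPM in Scr13, at 33.6 and 42.0 nCPM in Scr16, at 34.1 and 38.4 nCPM in KO11 and at 35.4 and 42.5 nCPM in KO28. The untreated genotypes overlapped. After doxorubicin it stood at 45.6 and 43.2 nCPM in Scr13, at 45.0 and 46.9 nCPM in Scr16, at 62.2 and 47.9 nCPM in KO11 and at 58.3 and 66.7 nCPM in KO28. The KO libraries were then all above the Scr libraries, though the lowest KO value, 47.9 nCPM, was close to the highest Scr value, 46.9 nCPM. The log2 difference was 0.36 ± 0.10 (SE) with adjusted p = 0.0303 (limma, Benjamini-Hochberg). The size of the difference stayed between 0.30 and 0.46 without any 1 library, but the call did not hold throughout. Without KO11 replicate 1, KO28 replicate 1, KO28 replicate 2, Scr13 replicate 2 or Scr16 replicate 2, each left out alone, the adjusted p was 0.122, 0.0703, 0.130, 0.0778 and 0.0502 (limma, Benjamini-Hochberg). It was also lost without each of the 4 clones (adjusted p from 0.0539 without KO11 to 0.395 without KO28, where the difference was 0.27) and with no filter on low values (adjusted p = 0.0819, limma, Benjamini-Hochberg).

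EGR1 (ENSG00000120738, chromosome 5, 138465490 to 138469315, plus strand), a zinc finger transcription factor with matches to the CArG box and the CRE core in its start region as shown above, was at 23.1 and 22.5 nCPM in untreated Scr13 and at 14.7 and 26.1 nCPM in untreated Scr16. In the untreated KO libraries it was at 28.6 and 40.5 nCPM in KO11 and at 38.4 and 41.7 nCPM in KO28. Every KO library was above every Scr library, by little at the nearest pair (28.6 against 26.1 nCPM). After doxorubicin EGR1 was at 37.4 and 42.1 nCPM in Scr13 and at 42.9 and 45.9 nCPM in Scr16. It was at 80.6 and 70.5 nCPM in KO11 and at 85.1 and 86.3 nCPM in KO28. The gap between the genotypes was then wider than the range within either, and untreated KO overlapped with Scr after doxorubicin. The log2 difference of KO over Scr was 0.78 ± 0.16 (SE, adjusted p = 0.00387) without treatment and 0.92 ± 0.10 (adjusted p = 1.08e-06) after doxorubicin (limma, Benjamini-Hochberg). These differences were above those of 98.3% and 98.0% of genes tested. Without clone KO28 the untreated difference was 0.66 with adjusted p = 0.0720, and with no filter on low values it had adjusted p = 0.0768 (limma, Benjamini-Hochberg), while the difference after doxorubicin passed in all 18 alternatives.

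ATF3 (ENSG00000162772, chromosome 1, 212565334 to 212620777, plus strand), a stress-induced member of the ATF/CREB family that can act as a repressor, was at 5.47 and 8.18 nCPM in untreated Scr13, at 5.16 and 10.9 nCPM in Scr16, at 8.38 and 11.1 nCPM in KO11 and at 8.45 and 12.04 nCPM in KO28. The untreated groups overlapped, with a log2 difference of 0.42 ± 0.22 (SE, limma, Benjamini-Hochberg adjusted p = 0.407). After doxorubicin it was at 13.7 and 11.3 nCPM in Scr13, at 4.94 and 10.0 nCPM in Scr16, at 20.5 and 19.7 nCPM in KO11 and at 17.5 and 27.5 nCPM in KO28. All KO libraries were above all Scr libraries, and Scr16 replicate 1 was the lowest of the 16. The log2 difference after doxorubicin was 1.08 ± 0.23 (SE) with adjusted p = 0.00275, and 0.81 with adjusted p = 0.00274 without Scr16 replicate 1 (limma, Benjamini-Hochberg). It missed the threshold without clone KO28 (1.02, adjusted p = 0.0614) and with no filter on low values (adjusted p = 0.0562, limma, Benjamini-Hochberg).

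NR4A1 (ENSG00000123358, chromosome 12, 52022832 to 52059507, plus strand), an orphan nuclear receptor, overlaps the lincRNA AC025259.3 on the other strand. Without treatment it stood at 26.4 and 27.2 nCPM in Scr13, at 23.7 and 24.9 nCPM in Scr16, at 28.1 and 30.1 nCPM in KO11 and at 27.6 and 31.1 nCPM in KO28. The genotypes did not overlap, but the gap was narrow, and the log2 difference of 0.19 ± 0.11 (SE) had adjusted p = 0.505 (limma, Benjamini-Hochberg). After doxorubicin it stood at 42.8 and 41.8 nCPM in Scr13, at 36.2 and 38.4 nCPM in Scr16, at 38.7 and 41.5 nCPM in KO11 and at 39.2 and 40.2 nCPM in KO28. The KO values lay inside the Scr range, and the log2 difference of 0.01 had a 95% interval of -0.21 to 0.22.

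IER2 (ENSG00000160888, chromosome 19, 13150415 to 13154908, plus strand), a small nuclear protein, was between 63.3 and 96.0 nCPM in all libraries, with log2 differences of 0.14 (95% interval -0.05 to 0.33) and 0.07 (-0.12 to 0.27) between the genotypes. DUSP1 (ENSG00000120129, chromosome 5, 172768090 to 172771195, minus strand), which dephosphorylates p38, JNK and ERK, was between 14.4 and 31.2 nCPM, with log2 differences of 0.21 (-0.10 to 0.53) and 0.27 (-0.07 to 0.60). Neither was called in either genotype comparison, and the genotypes overlapped in both. An antisense transcript overlaps each of them, AC011446.2 and AC022217.3, and whether the counting used strand is not given in the sources used here.

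BTG2 (ENSG00000159388, chromosome 1, 203305491 to 203309602, plus strand), an antiproliferative cofactor of mRNA deadenylation and a known p53 target, was at 17.5 and 14.8 nCPM in untreated Scr13 and at 16.3 and 21.6 nCPM in untreated Scr16. In untreated KO it was at 24.4 and 28.4 nCPM in KO11 and at 30.6 and 33.9 nCPM in KO28. Again every KO library was above every Scr library. After doxorubicin BTG2 was at 63.9 and 68.6 nCPM in Scr13 and at 60.4 and 70.4 nCPM in Scr16. It was at 124 and 117 nCPM in KO11 and at 110 and 111 nCPM in KO28. Here the 4 groups formed an order without overlap, from untreated Scr through untreated KO and treated Scr to treated KO. The log2 difference of KO over Scr was 0.71 ± 0.14 (SE, adjusted p = 0.00328) without treatment and 0.80 ± 0.08 (adjusted p = 8.05e-07) after doxorubicin (limma, Benjamini-Hochberg). The untreated difference missed the threshold without clone Scr13 (adjusted p = 0.0969) or KO28 (adjusted p = 0.0607), and that after doxorubicin passed in all 18 alternatives (limma, Benjamini-Hochberg).

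A two-sided exact permutation test over the 70 divisions of 8 libraries gave p = 0.0286, the smallest it can give, for EGR1 and BTG2 in both treatments, for NR4A1 without treatment, and for ATF3 and JUNB after doxorubicin. That value follows whenever the groups do not overlap, so for these members it repeats the non-overlap given above and adds no further support. The test treats the 2 libraries of a clone as independent, and its p-values are not adjusted. For the other members and FOSB its p was 0.114 or more.

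Levels of different genes can be set side by side only per length. Per kilobase of exon, untreated Scr held most of IER2 (23.1 nCPM per kb), JUNB (19.5) and JUN (16.2), then DUSP1 (10.3), EGR1 (6.88), BTG2 (6.37), NR4A1 (3.502), ATF3 (1.84), FOS (0.999) and FOSB (0.0286). After doxorubicin in KO, BTG2 came first with 41.9 nCPM per kb, before JUNB (32.3), IER2 (29.3) and EGR1 (25.7). JUN and JUNB were above FOS and FOSB on this scale in all 4 groups.

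Doxorubicin raised BTG2, EGR1, NR4A1 and JUNB in Scr and these same 4 genes, FOS and ATF3 in KO. BTG2 rose most, 3.62-fold in Scr and 3.87-fold in KO. None of the 9 members tested fell past the threshold in limma or edgeR in either genotype when all libraries were used, and 1, JUN in KO, was lower at an unadjusted p under 0.05. These comparisons used reads recovered from both tables and normalized together, and they share their libraries with the genotype comparisons above, so both kinds of result are not independent of each other. In Scr 4 of 9 members were called higher, where 6.45% of 14378 genes were, and in KO 6 of 9, where 10.3% of 14513 genes were. Treated and untreated libraries did not overlap for the same 4 members in Scr (8.62% of genes higher) and for 7 in KO (11.1%), the 6 called members and IER2. The median log2 change of the 9 members was 0.36 in Scr and 0.63 in KO, beside -0.01 and 0.02 over all genes tested.

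**Figure D3:**
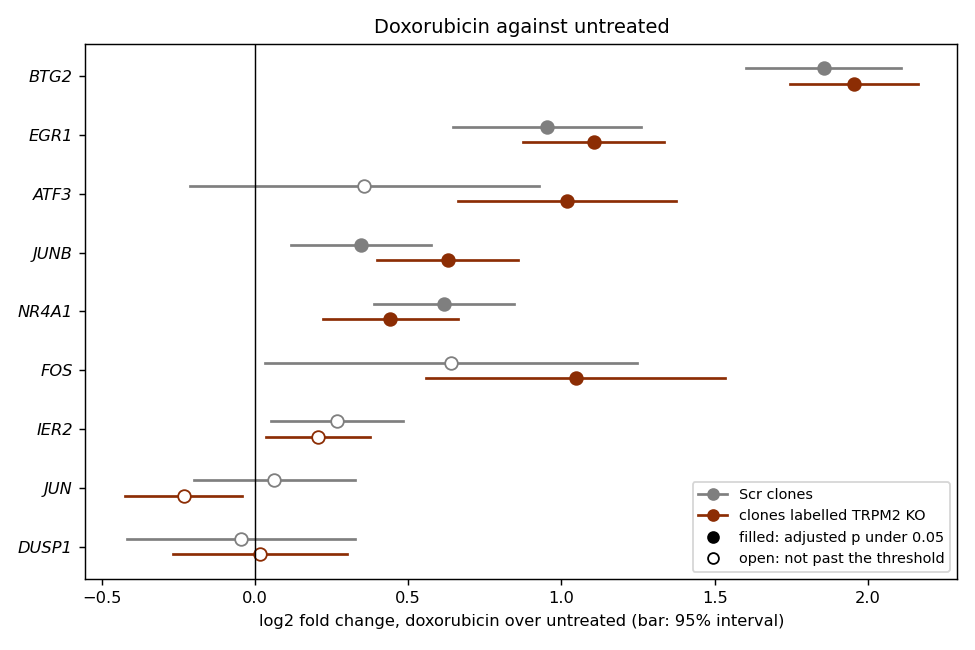
Log2 fold change of doxorubicin over untreated (x axis) with its 95% interval for the 9 members tested, in Scr clones (grey) and clones labelled TRPM2 KO (brown), with filled points for adjusted p under 0.05. BTG2 lies near 2 in both (1.86 and 1.95), EGR1 near 1 (0.95 and 1.11), and ATF3 and FOS have filled points in KO only, while the interaction term, which tests whether the change differed between the genotypes, did not pass for either.

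The change of BTG2 was 1.86 ± 0.12 (log2, SE) in Scr and 1.95 ± 0.10 in KO, with adjusted p = 1.98e-08 and 9.63e-13 (limma, Benjamini-Hochberg). By clone it was 1.98 in Scr13, 1.73 in Scr16, 2.16 in KO11 and 1.75 in KO28, so the clones of one genotype differed by more than the genotypes did. EGR1 changed by 0.95 ± 0.15 in Scr (adjusted p = 3.03e-04) and by 1.11 ± 0.11 in KO (adjusted p = 9.97e-08, limma, Benjamini-Hochberg), with clone values from 0.78 in Scr13 to 1.13 in KO11. NR4A1 changed by 0.62 ± 0.11 and 0.44 ± 0.11, with adjusted p = 0.00109 and 0.00477 (limma, Benjamini-Hochberg). With only 1 clone of a genotype it missed the threshold in Scr without Scr13 (0.59, adjusted p = 0.168) and in KO without KO11 (0.43, adjusted p = 0.181, limma, Benjamini-Hochberg).

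JUNB changed by 0.63 ± 0.11 (SE, adjusted p = 2.30e-04) in KO and by 0.35 ± 0.11 (adjusted p = 0.0470) in Scr (limma, Benjamini-Hochberg). The Scr call was lost when any of 7 of the 8 libraries was left out, with adjusted p between 0.0546 (without treated Scr16 replicate 1) and 0.163 (without untreated Scr13 replicate 2), and kept only without untreated Scr16 replicate 2 (limma, Benjamini-Hochberg). FOS changed by 1.05 ± 0.24 in KO (adjusted p = 0.00268) and by 0.64 ± 0.29 in Scr (adjusted p = 0.173), and in KO it missed the threshold without clone KO11 (0.93, adjusted p = 0.114, limma, Benjamini-Hochberg). ATF3 changed by 1.02 ± 0.17 in KO (adjusted p = 1.45e-04) and by 0.36 ± 0.27 in Scr (adjusted p = 0.445, limma, Benjamini-Hochberg). The Scr clones went apart for ATF3, with 0.81 in Scr13 and -0.09 in Scr16, while KO11 and KO28 had 0.99 and 1.05.

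JUN, IER2 and DUSP1 were not called in either genotype. JUN changed by 0.06 in Scr and -0.23 in KO, the latter with a 95% interval of -0.42 to -0.04 and an adjusted p of 0.0881, which became 0.0262 without untreated KO28 replicate 2 (limma, Benjamini-Hochberg). The JUN value in KO differed by clone, -0.36 in KO11 and -0.11 in KO28, so that it passed as a fall without clone KO28 (adjusted p = 0.0249) and not without clone KO11 (adjusted p = 0.764, limma, Benjamini-Hochberg). IER2 changed by 0.27 (95% interval 0.05 to 0.48) in Scr and by 0.21 (0.04 to 0.38) in KO, with adjusted p = 0.104 and 0.0855, and the Scr value passed without treated Scr16 replicate 1 (0.36, adjusted p = 0.0184, limma, Benjamini-Hochberg). DUSP1 changed by -0.04 (-0.42 to 0.33) in Scr and by 0.02 (-0.27 to 0.30) in KO. The clones of each genotype went opposite ways for DUSP1, with 0.38 in Scr13 and -0.47 in Scr16, and 0.23 in KO11 and -0.20 in KO28.

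Whether doxorubicin changed a member more in one genotype was asked with an interaction term over all 16 libraries. None of the 9 members was called by limma, 0 of 9 had an unadjusted p under 0.05, and edgeR also called 0, where limma called 3 of 15325 genes (0.0196%). ATF3 had an interaction of 0.66 on the log2 scale (95% interval -0.02 to 1.34), FOS of 0.41 (-0.37 to 1.18), and JUN of -0.30 (-0.62 to 0.03). These sizes depended on single libraries and clones. Without treated Scr16 replicate 1, ATF3 was at 0.39 and FOS at 0.62, and without clone Scr16 ATF3 was at 0.21 and without clone Scr13 at 1.11. FOS was at 0.22 without untreated Scr16 replicate 2 and at 0.26 without treated Scr16 replicate 2. JUNB had 0.28 (-0.04 to 0.60), EGR1 0.15 (-0.23 to 0.54) and BTG2 0.10 (-0.22 to 0.42). The intervals of ATF3 and FOS leave room for a change in KO more than 2 times that in Scr, and that of BTG2 does not.

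Other genes of the early response, were a list of 45, of which 42 were found in the tables. Without treatment 4 of 32 tested were higher in KO and none lower, where 2.3% and 2.54% of all genes tested were, with a median log2 difference of 0.12. They were CCN1, a secreted matricellular protein and target of SRF and YAP, FOSL2, an AP-1 subunit, ARC, a postsynaptic protein, and SPRY4, a feedback inhibitor of receptor tyrosine kinase signalling. After doxorubicin 10 of 34 were higher and none lower, where 4.52% and 4.17% of all genes were, with a median of 0.23. CCN1 stood at 19.7 ± 5.70 nCPM in KO and 2.63 ± 0.959 nCPM in Scr (SD, n = 4 each), a log2 difference of 2.51 (adjusted p = 6.73e-07, limma, Benjamini-Hochberg). FOSL1, an AP-1 subunit like FOSL2, stood at 6.15 ± 2.32 against 1.40 ± 1.16 nCPM, DUSP2, a nuclear MAP kinase phosphatase, at 10.8 ± 1.99 against 3.60 ± 2.44 nCPM, and CSRNP1, a nuclear protein, at 5.83 ± 1.24 against 2.07 ± 1.23 nCPM. EGR2, a paralog of EGR1, was low, at 2.15 ± 0.410 against 0.269 ± 0.419 nCPM. It is among the 10 called, but it passed the filter of 1 nCPM through its KO libraries. Such a gene could hardly have been counted as lower in KO.

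With doxorubicin, 12 of 32 genes of this list rose in Scr and 3 fell, and 17 of 34 rose in KO and 1 fell, with medians of 0.23 and 0.43. Of all genes tested, 6.45% rose and 4.92% fell in Scr, and 10.3% rose and 7.24% fell in KO. PLK2, a polo-like kinase, went from 6.76 ± 1.78 to 21.9 ± 2.63 nCPM in Scr and from 6.64 ± 1.36 to 38.7 ± 3.31 nCPM in KO (SD, n = 4 each). PLK3, of the same family, ARC and BHLHE40, a repressor in the circadian clock, rose in both genotypes, and FOSL1 was called in KO. MYC, the growth regulator, fell in both, by 0.80 on the log2 scale in Scr and by 1.09 in KO, with adjusted p = 0.00392 and 5.62e-07 (limma, Benjamini-Hochberg). DUSP2 fell in Scr, from 8.88 ± 2.14 to 3.60 ± 2.44 nCPM, while it stood at 11.2 ± 0.664 and 10.8 ± 1.99 nCPM in KO, and no gene of the list was called for the interaction.

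**Figure D4:**
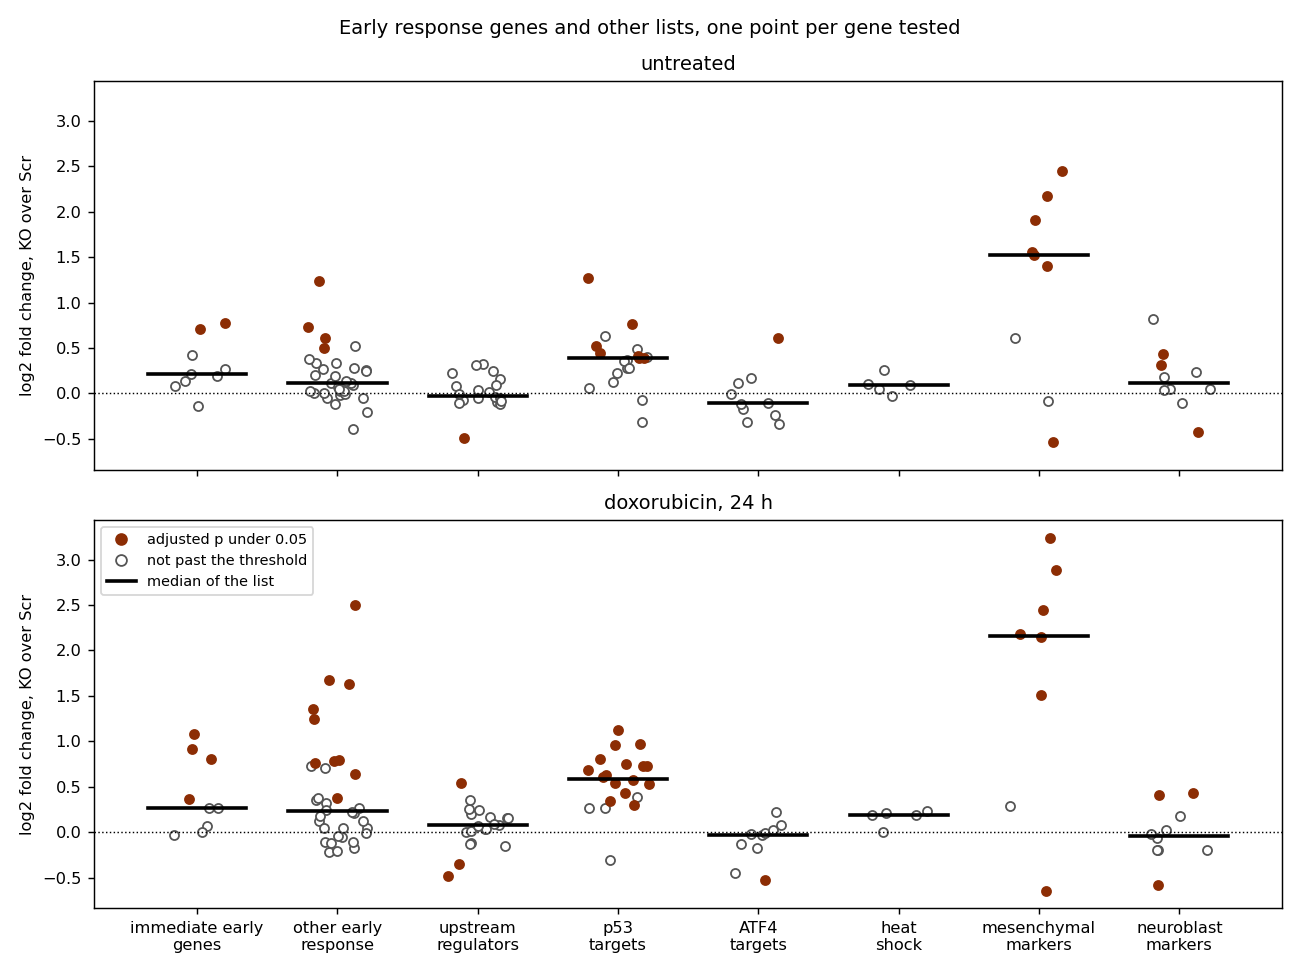
Log2 fold change of KO over Scr (y axes) for the genes tested in 8 lists (x axis), 1 point per gene, in untreated cells (top) and after doxorubicin (bottom), with brown points for adjusted p under 0.05 and a line at the list's median. The medians of the immediate early genes (0.21 and 0.27) lie between those of the upstream regulators (-0.02 and 0.08) and the p53 targets (0.39 and 0.59), and the mesenchymal markers are farthest from 0 (1.52 and 2.16). The mesenchymal medians include DCN in both panels and LUM after doxorubicin, which passed the filter on low values through KO libraries alone.

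The regulators that act on these genes, a list of ternary complex factors, MRTFs, CREB family members, MAP kinases and the kinases MSK and RSK, had 1 call of 20 without treatment and 3 after doxorubicin. The untreated call was lower in KO, as were 2.54% of all genes, and after doxorubicin 1 was higher (4.52% of all genes) and 2 were lower (4.17%). RPS6KA5, which encodes the CREB and histone kinase MSK1, was lower in KO in both, with 22.3 ± 1.90 against 31.7 ± 3.65 nCPM untreated and 25.9 ± 2.55 against 36.7 ± 3.68 nCPM after doxorubicin (SD, n = 4 each). ELK3, a ternary complex factor, was higher in KO after doxorubicin, at 57.7 ± 5.20 against 39.4 ± 5.50 nCPM, and MAP2K2, the ERK kinase MEK2, was lower, at 128 ± 11.9 against 162 ± 1.80 nCPM.

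Targets of p53 moved in the same libraries as BTG2. Of 20 such genes 19 rose with doxorubicin in each genotype and none fell, and KO was above Scr in 7 of 19 tested without treatment and in 16 of 20 after doxorubicin, with none below. Of all genes tested, 6.45% rose in Scr and 10.3% in KO, and 2.3% and 4.52% were higher in KO. Their median log2 difference between genotypes was 0.39 without treatment and 0.59 after doxorubicin, and their part in the differences of BTG2 and ATF3 was not tested. CDKN1A, the cell cycle inhibitor p21, was at 57.0 ± 15.2 nCPM in untreated Scr, 136 ± 16.5 in untreated KO, 337 ± 25.1 in treated Scr and 736 ± 45.3 in treated KO (SD, n = 4 each). GDF15, a secreted stress cytokine, was at 4.05 ± 1.11, 6.90 ± 2.04, 105 ± 36.0 and 177 ± 12.96 nCPM in the same order. Targets of ATF4, the other stress programme that reaches ATF3, were called in 1 of 10 (higher, as were 2.3% of all genes) without treatment and in 1 of 10 (lower, as were 4.17%) after doxorubicin. The 5 heat shock genes tested were HSPA8, HSPH1, DNAJB1, HSP90AA1 and HSPB1, while HSPA1A and HSPA1B of the list were not analysed here. These 5 genes had medians of 0.09 and 0.19 in the genotype comparisons, with none past the threshold. With doxorubicin, 2 of 5 heat shock genes fell in Scr and 1 of 5 in KO, and none rose. Their medians were -0.22 and -0.13, and 4.92% and 7.24% of all genes tested fell. Of 10 targets of ATF4, 2 rose and 1 fell with doxorubicin in Scr, and 1 rose and 1 fell in KO.

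Across the 16 libraries the genes whose pattern was most like that of BTG2 were CDKN1A (Pearson r = 0.99 of log2(nCPM + 1)), EPHA2 (0.99) and INKA2 (0.98), among 12255 genes ranked. For EGR1 they were METTL7A (0.97), TUBB6 (0.96) and TSPAN11 (0.95), for ATF3 ECE1 (0.95), SRC (0.90) and TRIM3 (0.89), for FOS ADIPOR1 (0.89), RIC1 (0.88) and SPATA20 (0.86), and for JUN STAT5B (0.86), MAML1 (0.80) and GPR161 (0.78). The libraries share clones and treatments, so these values mostly describe the order of the 4 groups. Among the members, BTG2 and EGR1 had r = 0.93 over the 16 libraries and 0.54 after the group means were removed, ATF3 and IER2 0.81 and 0.80, and JUNB and JUN -0.29 and -0.38.

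More members were lower in replicate 1 than in replicate 2 in all 8 pairs of replicates of a clone, from 5 of 9 (Scr13 and KO11 after doxorubicin) to 8 of 9 (KO28 after doxorubicin and both pairs of Scr16). In Scr16, the median log2 difference was -0.38 without treatment and -0.22 after doxorubicin, against -0.01 and -0.03 over 15325 genes. FOS after doxorubicin and DUSP1 without treatment were the members tested that went the other way in Scr16. The other 6 pairs had medians between -0.14 and -0.03. The cause was not tested.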

How the data were processed

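RNA was poly(A) selected, and NEXTflex directional libraries were sequenced from 16 samples. Per the submitters' processing notes the reads went through bcl2fastq, HISAT2 2.1.0, HTSeq and edgeR on GRCh38, and the annotation and strand setting are not given in the sources used here. The authors deposited normalized CPM, here a signal per gene and library, in 1 table for each treatment. Columns deposited with the authors' own edgeR comparisons (log2 fold changes, p-values, q-values and a ranking score) were not used. Every value came out as a whole number of reads within 0.001 (100% of values in each library), with factors from 0.974 to 1.03.

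The genotypes were compared by limma 3.58.1 with an abundance trend on log2(nCPM + 1), over genes with at least 1 nCPM in at least 4 libraries, with Benjamini-Hochberg adjustment and a threshold of 0.05. The product of the 16 factors was 1.03, so for doxorubicin against untreated and for the interaction the recovered reads were normalized together (edgeR 4.0.16, TMM). Standard errors and 95% intervals are from limma. Alternatives were no filter, a pseudocount of 0.5, library size alone, edgeR's quasi-likelihood test, a replicate block, clone as a block or a fixed term, leaving out each library or clone, and, added after the data were seen, the deposited values of both tables for doxorubicin. The fits were tested on simulated data. Positions are from GENCODE 29, and 95.0% of identifiers had a symbol.

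The members and lists were chosen with earlier results of these data known. Named were all members, TRPM2, at most 5 called genes of each list and comparison with the largest change, and the 3 genes most like FOS, EGR1, JUN, ATF3 and BTG2. MYC, TH, COL1A1, WWTR1, COL1A2 and TWIST1 were named after their values were seen where they fall outside this rule. IER3, NR4A2, KLF4, HSPA1A, HSPA1B and PRRX1 were not analysed here.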

Additional observations from a re-analysis of the deposited data

Results flagged for a closer look

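Of 40 groups of 4 libraries checked over the members, 2 had a library far from the other 3 by Dixon's test, and chance gives about 1 such group in 20. DUSP1 was at 31.2 nCPM in untreated KO28 replicate 2, while the other 3 untreated KO libraries had 21.6 to 22.6 nCPM. FOSB was at 0.276 nCPM in untreated KO11 replicate 1, which is 5 reads, while the other 3 untreated KO libraries had 0 reads.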

How the results depend on the processing

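EGR1 and BTG2 kept their direction in every alternative run for the genotype and the doxorubicin comparisons, and both kept their call between genotypes after doxorubicin. With no filter on low values the counts of genes called were 368 in place of 695 between untreated genotypes, 834 in place of 1636 for doxorubicin in Scr and 5 in place of 3 for the interaction, and the members called between genotypes were 1 in place of 2 without treatment and 2 in place of 4 after doxorubicin. Over genes as a whole the replicate numbers did not pair the libraries, since the 28 correlations between the replicate differences of 2 pairs lay between -0.10 and 0.12 (median 0.03), with 1 over 0.1, KO11 and KO28 after doxorubicin. The members themselves were more often lower in replicate 1, as given above. With the replicate block the genes called were 697, 1365, 1862, 2535 and 7 in the order of the report, IER2 in Scr also passing (adjusted p = 0.0434, limma with Benjamini-Hochberg adjustment). Clone as a fixed term gave 5 for the interaction. Clone as a random block called 1510 genes in place of 1266 between genotypes after doxorubicin, with an estimated correlation within clones of -0.0987. That alternative was therefore no stricter than the main fit. With 1 library or 1 clone left out, genes called between genotypes ranged from 327 to 796 without treatment and from 510 to 1314 after doxorubicin (814 without KO11 replicate 1), and the members called from 0 to 2 and from 2 to 4. For doxorubicin in Scr the genes ranged from 244 to 1650 (1048 without treated Scr13 replicate 1) and the members from 2 to 4, in KO the genes from 949 to 2832, and the interaction from 0 to 6 genes. The lowest counts were those without a whole clone. Signs turned only for members that were not called. NR4A1 after doxorubicin was -0.0126 with library size alone and -0.00235 with edgeR, and DUSP1 for doxorubicin in KO -0.0186 and -0.0118. Left-out libraries or clones gave, between genotypes without treatment, -0.34 to 0.055 for FOS and -0.00279 to 0.18 for JUNB, and after doxorubicin -0.19 to 0.13 for JUN, -0.0135 to 0.15 for IER2 and -0.082 to 0.094 for NR4A1. For doxorubicin in Scr they gave -0.031 to 0.16 for JUN, -0.094 to 0.81 for ATF3 and -0.47 to 0.38 for DUSP1, and in KO -0.20 to 0.23 for DUSP1. For the interaction they gave -0.018 to 0.32 for EGR1, -0.18 to 0.057 for IER2, -0.37 to 0.49 for DUSP1 and -0.10 to 0.30 for BTG2. The cause was not tested. FOSB had few reads and did not pass the filter on low values, and whether depth limits it was not tested.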
